A study of Homo sapiens with 14 samples.

Results

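C4-2B vehicle libraries of the digoxin series were compared with C4-2B vehicle libraries of the ursolic acid (UA) series at the same time, 24 and 48 h, to describe how far the untreated line stood apart between both experiments. These are 4 of the 14 libraries of the study, which tested UA and digoxin in C4-2B prostate cancer and HCC70 breast cancer cells. C4-2B, a descendant of LNCaP prostate cancer cells, grows with little androgen. All 4 libraries are labelled WT and vehicle, and the cells were kept in RPMI-1640 with 10% fetal bovine serum. The pairs were the digoxin-series vehicle against the UA-series vehicle at 24 h, and the same at 48 h. What the vehicle contained, and whether the series were grown, extracted or sequenced together, is not given in the sources used here.

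Values are FPKM, fragments per kilobase of transcript and per 1000000 mapped fragments. Both sets of files list 26112 gene IDs in common, which gave 26034 genes after entries of a symbol were summed. A gene entered a pair when it was above 1 FPKM in either library, which left 12092 genes at 24 h, 12349 at 48 h and 11930 in both pairs. At 24 h the lowest gene inside this limit had 1.01 FPKM and the highest outside it 1.0 FPKM in the higher library, and the same was true at 48 h. A log2 ratio is the digoxin-series over the UA-series vehicle after 0.1 FPKM was added to each, and a gene is called higher or lower past 2-fold. There is 1 library per condition, so no error or p-value is given for a gene, and a difference between the series cannot be told apart from a difference between 2 cultures or between 2 rounds of library preparation. Gene levels in bulk RNA do not tell fewer cells of a kind from less RNA per cell.

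Several gene systems recur below. Cholesterol synthesis is switched on when sterols run low in the endoplasmic reticulum (ER), where INSIG1 holds back the SCAP-SREBP2 complex until it moves to the Golgi and SREBP2 is cut free. The integrated stress response raises the transcription factor ATF4 when amino acids or ER folding capacity fall short, and ATF4 turns on amino acid synthesis and transport. NF-kB proteins are kept in the cytoplasm by inhibitors such as NFKBIA, which are themselves NF-kB targets, and androgens drive the kallikreins of luminal prostate cells.

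All 11 prostate luminal markers examined were above 1 FPKM in each of the 4 libraries, with KLK3, the gene of prostate-specific antigen, at 1484 and 1971 FPKM in the digoxin-series vehicles, against 1207 and 1212 FPKM in the UA-series vehicles. Of 8 basal or breast epithelial markers, EGFR and KRT14 were above 1 FPKM, and they leaned to opposite sides. EGFR was at 27.7 and 28.9 FPKM in the digoxin-series vehicles, against 20.9 and 21.5 FPKM in the UA-series vehicles. KRT14 was at 1.16 and 1.43 FPKM in the digoxin-series vehicles, against 5.27 and 4.66 FPKM in the UA-series vehicles. KRT5, KRT17 and KRT6A were listed at 0 in the digoxin-series vehicles and lay between 0.08 and 0.34 FPKM in the UA-series vehicles, and TP63 and KRT4 were at or near 0 in all 4. Of 8 fibroblast, endothelial and blood markers only COL1A1 was above 1 FPKM. Depth, read from the steps between low values, was about 13600000 and 14300000 fragments in the digoxin-series vehicles at 24 and 48 h, against 14300000 and 14900000 in the UA-series vehicles, a rough estimate. The 13 mitochondrially encoded genes held 33.1 and 25.9% of the summed FPKM of the shared genes in the digoxin-series vehicles, against 37.8 and 41.8% in the UA-series vehicles.

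At 24 h, 501 genes were higher (4.14% of those that entered) and 729 lower (6.03%) in the digoxin-series vehicle than in the UA-series vehicle. At 48 h, 1355 genes were higher (11%) and 716 lower (5.8%). The median log2 ratio of all genes was 0.03 at 24 h and 0.19 at 48 h, and with each pair centred on its median 459 genes were higher and 778 lower at 24 h, and 798 higher and 1112 lower at 48 h. Both pairs share no library. Across their 11930 genes Pearson's r between the log2 ratios of the pairs was 0.75, with 81.8% of genes on the same side of 0. In both pairs 315 genes were higher (2.64%) and 370 lower (3.1%), while 14 changed sides, 3 of them higher at 24 h and 11 higher at 48 h.

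**Figure D1:**
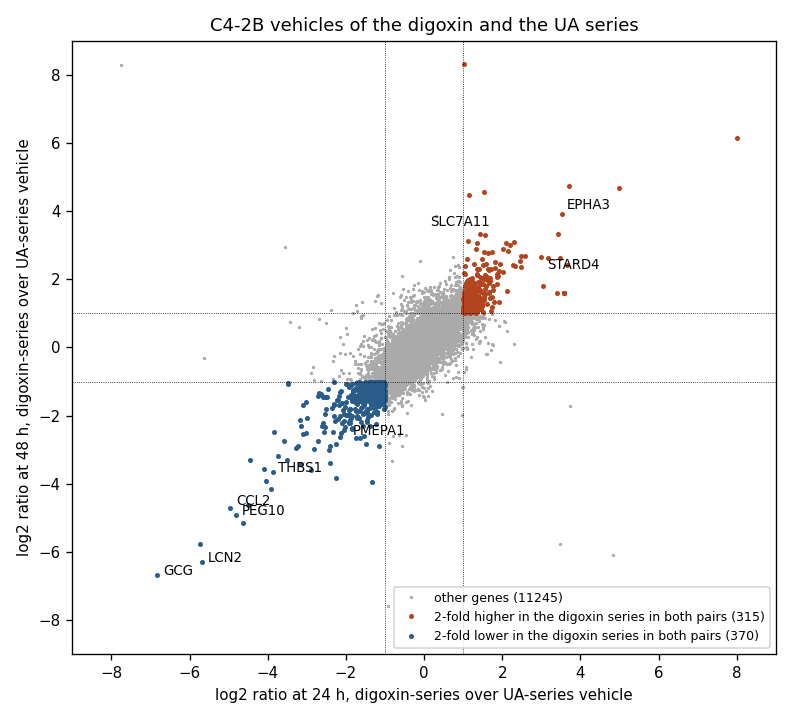
Each point is 1 of 11930 genes, with its log2 ratio of digoxin-series over UA-series vehicle at 24 h on the horizontal axis and at 48 h on the vertical axis, and dotted lines mark 2-fold. The 315 genes that were higher and the 370 that were lower in both pairs lie in opposite corners, with GCG and LCN2 far into the lower one and EPHA3 in the upper one.

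The base composition of a transcript moved with its log2 ratio throughout. Spearman's rho between the ratio and the GC content of the longest annotated transcript was -0.63 at 24 h across 12092 genes and -0.60 at 48 h across 12349 genes. Protein-coding genes were split into 10 equal bins of GC content. In the lowest bin, 29.2 to 38.1%, the median log2 ratio was 0.56 at 24 h and 0.75 at 48 h, while in the highest bin, 61.7 to 76%, it was -0.57 at 24 h and -0.54 at 48 h. Within a series the relation was much weaker, with a rho of -0.09 for 48 over 24 h in the digoxin-series vehicles and 0.07 in the UA-series vehicles. Exon length and mean level had values of rho between -0.05 and 0.10. When each ratio was centred on the median of its bin among 20 bins of GC content, a step chosen after seeing the data, 254 genes were higher (2.1%) and 519 lower (4.3%) at 24 h, and 449 higher (3.64%) and 659 lower (5.34%) at 48 h. In both pairs 118 genes were then higher (0.99%) and 278 lower (2.33%). Of the 315 higher genes 92 were among them, and of the 370 lower genes 198. Pearson's r between the log2 ratios of the pairs was 0.64 after GC-centring, against 0.75 before it. GC-centred values are therefore given beside most groups of genes, and what part RNA, library preparation and sequencing have in the relation was not tested.

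**Figure D2:**
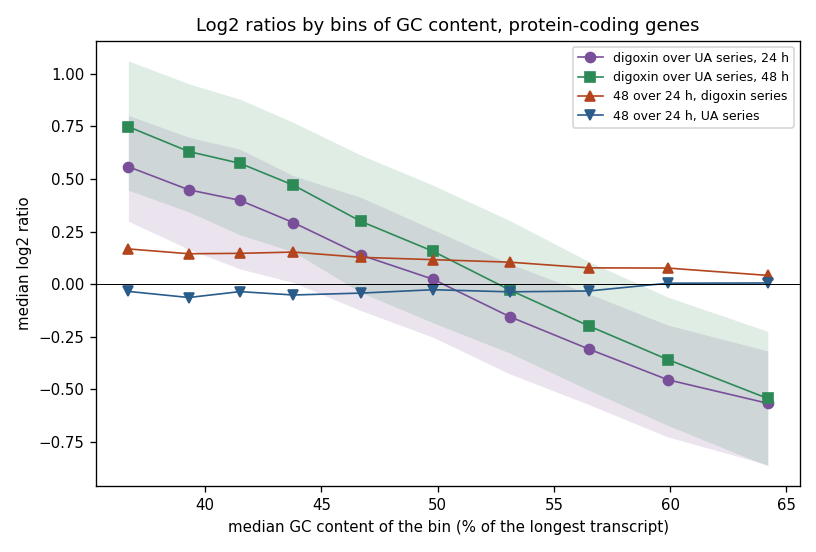
Median log2 ratio, on the vertical axis, of protein-coding genes in 10 equal bins of GC content, with the median GC content of the bin in percent on the horizontal axis; shaded bands span the quartiles of the comparisons between series. The comparisons between series fall from 0.56 and 0.75 in the lowest bin to -0.57 and -0.54 in the highest, while both comparisons of 48 over 24 h within a series stay between -0.06 and 0.17.

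Genes of sterol synthesis were higher in the digoxin-series vehicles. Of the 25 genes of cholesterol synthesis and SREBP2 targets that entered, 9 were higher and 0 lower at 24 h, beside 4.14% of all genes higher, and 13 were higher and 0 lower at 48 h, beside 11%. Their median log2 ratio was 0.78 at 24 h and 1.03 at 48 h, against 0.03 and 0.19 over all genes. With GC-centred ratios the medians were 0.84 and 0.95, and 10 were higher at 24 h and 12 at 48 h, beside 2.1 and 3.64% of all genes. At each time 22 of the 25 ratios were positive. In the sentences below, FPKM values stand in the order 24 h, 48 h.

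The 9 genes higher at both times, beside 2.64% of all genes, ran through the pathway and its control. INSIG1, which holds SREBP2 in the ER, was at 72.8 and 121 FPKM in the digoxin series, against 12.9 and 18.7 FPKM in the UA series, and its log2 ratio was 2.49 at 24 h and 2.69 at 48 h. STARD4, a carrier that moves cholesterol between membranes, was at 4.42 and 6.98 FPKM in the digoxin-series and 0.47 and 1.02 FPKM in the UA-series vehicles, with 2.99 at 24 h and 2.66 at 48 h for its log2 ratio. Both digoxin-series values lay above both UA-series values for each of these genes, which their being past 2-fold in both pairs makes likely. Early enzymes included HMGCS1, which makes HMG-CoA, at 27.1 and 29.1 FPKM in the digoxin-series vehicles, against 11.9 and 8.60 FPKM in the UA-series vehicles. IDI1, the isomerase of the isoprenoid branch, had 43.4 and 43.4 FPKM in the digoxin series, against 11.9 and 10.3 FPKM in the UA series. SQLE, which adds the first oxygen to squalene, stood at 22.5 and 27 FPKM in the digoxin-series and 9.24 and 9.44 FPKM in the UA-series vehicles. The remaining ones act on the sterol ring, and they were CYP51A1 at 48.9 and 58.3 FPKM in the digoxin-series vehicles, against 20.03 and 20.1 FPKM in the UA-series vehicles, MSMO1, HSD17B7 and SC5D. For these 4 genes the log2 ratios lay between 1.06, of SC5D at 24 h, and 1.81, of MSMO1 at 48 h.

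FDFT1, which makes squalene, had 291 and 333 FPKM in the digoxin series, against 154 and 143 FPKM in the UA series, and it passed 2-fold only at 48 h. SREBF2, which encodes SREBP2, was at 50.1 and 67.4 FPKM in the digoxin-series and 25.2 and 26.7 FPKM in the UA-series vehicles, a log2 ratio of 0.99 at 24 h and 1.33 at 48 h, which was just short of 2-fold at 24 h. MVD and PMVK, which act between mevalonate and the isoprenoids, had ratios below 0 in both pairs, with MVD at 6.86 and 12.7 FPKM in the digoxin-series vehicles, against 12.3 and 12.8 FPKM in the UA-series vehicles.

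SREBF2 is itself a target of the protein it encodes. Its promoter, from 250 bases before to 50 bases after the start of the gene (RefSeq, GRCh38.p14, chr22:41832855-41833154, plus strand), is shown because it holds the letters TCACNCCAC of a sterol regulatory element, in capitals, found on either strand in 1.13% of 35116 promoters of that length.
SREBF2: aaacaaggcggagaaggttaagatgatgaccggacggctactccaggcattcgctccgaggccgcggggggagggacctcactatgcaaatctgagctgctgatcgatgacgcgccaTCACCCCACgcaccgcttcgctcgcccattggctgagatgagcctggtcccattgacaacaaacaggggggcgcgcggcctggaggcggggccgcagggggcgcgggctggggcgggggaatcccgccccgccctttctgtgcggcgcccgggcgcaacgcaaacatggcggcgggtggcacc
The match lies at -133 from the start, and SREBF2 was the only 1 of 19 list genes with a promoter in the table that held it. A match of letters is a description of the sequence and not a measured site.

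Fatty acid genes followed in part. SCD, the desaturase that makes oleate, was at 157 and 245 FPKM in the digoxin series, against 28.7 and 41.9 FPKM in the UA series, and its log2 ratio was 2.44 at 24 h and 2.55 at 48 h. ACSL1, which couples fatty acids to CoA, had 69.7 and 148 FPKM in the digoxin-series and 26.4 and 29.8 FPKM in the UA-series vehicles, the 48 h value of the digoxin series being the highest. FADS1, a desaturase of polyunsaturated fatty acids, was at 61.8 and 69.9 FPKM in the digoxin-series vehicles, against 29.4 and 30.8 FPKM in the UA-series vehicles. SCD, ACSL1 and FADS1 were the 3 genes of 18 in the list that were higher in both pairs, beside 2.64% of all genes. At 24 h 4 of 18 were higher and 0 lower, beside 4.14% of all genes higher. At 48 h 5 of 19 were higher and 1 lower, beside 11% of all genes higher. FASN, fatty acid synthase, leaned to the other side with 350.0 and 388 FPKM in the digoxin series, against 439 and 469 FPKM in the UA series, and its GC-centred log2 ratios were 0.30 at 24 h and 0.30 at 48 h. The list had a median log2 ratio of 0.25 at 24 h and 0.35 at 48 h, and 0.40 and 0.30 with GC-centring. LPL, the lipase that frees fatty acids from lipoproteins, was at 8.37 and 8.71 FPKM in the digoxin-series and 0.84 and 1.32 FPKM in the UA-series vehicles.

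The other genes that led the higher side had varied roles. EPHA3, a receptor for ephrins on chromosome 3 (chr3:89107621-89482134, hg38), was at 12 and 14.8 FPKM in the digoxin-series vehicles, against 0.94 and 0.89 FPKM in the UA-series vehicles, the largest mean log2 ratio among the protein-coding genes above 5 FPKM in each pair that were higher at both times. AGR2, a disulfide isomerase of the ER in secretory epithelium, had 142 and 370.1 FPKM in the digoxin series, against 34.6 and 49.8 FPKM in the UA series. SPART, a protein of lipid droplets and endosomes, stood at 39.5 and 57.7 FPKM in the digoxin-series and 7.90 and 6.73 FPKM in the UA-series vehicles. Each of these genes separated both pairs by more than 4-fold. PTGFR, the receptor of prostaglandin F2α, was at 9.13 and 13.2 FPKM in the digoxin-series vehicles, against 2.51 and 2.23 FPKM in the UA-series vehicles. GNAI1, an inhibitory G protein subunit, had 9.77 and 12.5 FPKM in the digoxin series, against 2.63 and 2.71 FPKM in the UA series. REPS2, which takes part in endocytosis of growth factor receptors, was at 12.4 and 18.6 FPKM in the digoxin-series and 3.48 and 3.62 FPKM in the UA-series vehicles. Log2 ratios of these 3 genes ran from 1.81 for REPS2 at 24 h to 2.51 for PTGFR at 48 h. LUZP2, MTCP1, SLC25A48, a mitochondrial carrier, and GLYATL2, a glycine N-acyltransferase, had log2 ratios between 1.63, of GLYATL2 at 24 h, and 2.80, of LUZP2 at 48 h. With GC-centring each of the higher genes named here under the rule stayed past 2-fold in both pairs, the lowest value being 1.15, of LUZP2 at 24 h.

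The genes that led the lower side had varied roles as well. GCG, which encodes glucagon and its sister peptides, was listed at 0 in both digoxin-series vehicles, against 11.3 and 10.2 FPKM in the UA-series vehicles. LCN2, a lipocalin that binds bacterial siderophores, was at 1.11 and 0.49 FPKM in the digoxin-series vehicles, against 62.2 and 45.8 FPKM in the UA-series vehicles, and its log2 ratio was -5.69 at 24 h and -6.28 at 48 h. PI3, the elastase inhibitor elafin, was listed at 0 in both digoxin-series vehicles and at 5.19 and 5.39 FPKM in the UA-series vehicles. None of these 3 genes came near the UA-series level in either digoxin-series vehicle. THBS1, a matrix glycoprotein that binds cell surfaces, had 3.50 and 2.70 FPKM in the digoxin series, against 52.8 and 35.3 FPKM in the UA series. PEG10, an imprinted gene derived from a retrotransposon, had 0.15 and 0.15 FPKM in the digoxin-series and 6.97 and 7.46 FPKM in the UA-series vehicles. CYP4F8, which hydroxylates prostaglandins, was at 1.70 and 2.09 FPKM in the digoxin-series vehicles, against 26.9 and 38.6 FPKM in the UA-series vehicles. These genes had a log2 ratio of -3.66 or below at both times.

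LGALS1, which encodes galectin-1, was at 1.16 and 1.53 FPKM in the digoxin series, against 11.3 and 17.3 FPKM in the UA series. DMKN, the secreted dermokine, stood at 0.23 and 1.46 FPKM in the digoxin-series and 7.16 and 15.2 FPKM in the UA-series vehicles. PLA2G2A, a secreted phospholipase, had 0.81 and 2 FPKM in the digoxin-series vehicles, against 10.7 and 14 FPKM in the UA-series vehicles. All 3 were lower by more than 6-fold at both times. SLC22A3, a transporter of organic cations, was at 0.95 and 1.76 FPKM in the digoxin series, against 8.89 and 10.7 FPKM in the UA series. PCSK1N, an inhibitor of a prohormone convertase, was at 1.42 and 1.08 FPKM in the digoxin-series and 10.6 and 9.28 FPKM in the UA-series vehicles. The others named by the rule were PGLYRP2, CAPN5, PLEKHO1 and MYL9, the myosin regulatory light chain, and their log2 ratios lay between -2.21, of PLEKHO1 at 48 h, and -3.39, of PGLYRP2 at 48 h. In the treated libraries MYL9 was at 7.34 and 16.1 FPKM with 100 nM digoxin, against 11.6 and 10.1 FPKM with 10 µM UA, log2 ratios of -0.65 at 24 h and 0.66 at 48 h, so it was past 2-fold between the vehicles and not between these. GC-centred log2 ratios of the 13 genes with values above 0 were -1.92 or lower at both times.

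Several of these genes were very abundant in the HCC70 vehicles of the same study, LCN2 at 10391 and 11088 FPKM and PI3 at 7815 and 6462 FPKM at 24 and 48 h. For 83 genes, picked after seeing the data, the lower HCC70 vehicle was more than 20 times every C4-2B vehicle and the HCC70 mean was above 100 FPKM. As a percentage of the HCC70 level, the median was 0.0411% in the digoxin-series vehicles and 0.149% in the UA-series vehicles. Of the 83 genes, 73 had the higher mean in the UA-series vehicles and 9 in the digoxin-series vehicles. Over all genes that entered, 5838 of 12092 log2 ratios were negative at 24 h and 4890 of 12349 at 48 h. Some of the 83 lay near the floor, such as KRT6A with a mean of 0.16 FPKM in the UA-series and 0 in the digoxin-series vehicles. The percentages in the UA-series vehicles ran from 0 to 4.08%. In the UA-series vehicles LCN2 stood at 0.503% of its HCC70 level, PI3 at 0.0741%, KRT5 at 0.0183% and FXYD5 at 1.27%. LGALS1 and DMKN, given above, were also among the 83, at 2.88% and 2.83%. Other genes that led the lower side were not abundant there, with GCG, CYP4F8, PCSK1N and PGLYRP2 listed at 0 in both HCC70 vehicles. Whether HCC70 material had a part in these levels was not tested.

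Genes of the NF-kB pathway and its cytokines were lower in the digoxin-series vehicles. Of 14 list genes that entered at each time, 8 were lower and 0 higher at 24 h, beside 6.03% of all genes lower, and 5 lower and 0 higher at 48 h, beside 5.8%, with a median log2 ratio of -1.07 and -0.86. GC-centred, the medians were -0.84 and -0.50, with 4 and 5 genes lower, beside 4.3 and 5.34% of all genes. CCL2, a chemokine for monocytes, was at 0 and 0.11 FPKM in the digoxin-series vehicles, against 3 and 5.39 FPKM in the UA-series vehicles. NFKBIA, which encodes the inhibitor IκBα, had 51 and 49.5 FPKM in the digoxin series, against 106 and 123 FPKM in the UA series, and its log2 ratio was -1.05 at 24 h and -1.31 at 48 h. TNFAIP3, the deubiquitinase A20 that shuts the pathway off, was at 0.65 and 0.63 FPKM in the digoxin-series and 2.17 and 1.97 FPKM in the UA-series vehicles. RELB and NFKBIE were the other genes lower in both pairs, which made 5 of 12, beside 3.1% of all genes. CCL2 and TNFAIP3 were above 1 FPKM in the UA-series vehicles only, so the filter fixed their direction and the count only describes them. The share of all genes comes from the same filter. RELA, the main transactivating subunit, came close to the 2-fold limit at 45.2 and 42.1 FPKM in the digoxin-series vehicles, against 90.2 and 79.9 FPKM in the UA-series vehicles. BCL3, a nuclear IκB protein outside the list, was chosen after its values were seen and stood at 8.63 and 6.78 FPKM in the digoxin series, against 20.1 and 25.4 FPKM in the UA series.

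The promoters of NFKBIA (chr14:35404700-35404999, minus strand) and TNFAIP3 (chr6:137867009-137867308, plus strand), from RefSeq on GRCh38.p14, are shown because both genes are textbook NF-kB targets and lay lower together. Capitals mark the 10 letters of the NF-kB site on either strand, in which the fifth base was left free, and which occur in 0.558% of the promoters.
NFKBIA: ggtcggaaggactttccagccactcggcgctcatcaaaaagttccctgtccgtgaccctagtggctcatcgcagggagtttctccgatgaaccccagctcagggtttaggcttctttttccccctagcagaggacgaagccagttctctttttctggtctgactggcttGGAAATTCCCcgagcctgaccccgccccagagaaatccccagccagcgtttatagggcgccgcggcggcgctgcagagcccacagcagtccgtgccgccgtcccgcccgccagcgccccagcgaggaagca
TNFAIP3: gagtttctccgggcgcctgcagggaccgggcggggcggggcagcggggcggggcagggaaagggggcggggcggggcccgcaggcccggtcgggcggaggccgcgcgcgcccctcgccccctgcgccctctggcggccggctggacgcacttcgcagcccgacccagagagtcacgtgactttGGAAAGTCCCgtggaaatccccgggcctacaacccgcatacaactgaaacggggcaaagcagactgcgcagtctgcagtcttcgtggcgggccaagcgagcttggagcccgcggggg
The match lies at -81 from the start of NFKBIA and at -67 from that of TNFAIP3, on the strand opposite to the gene in each. In all, 10 of 23 list genes with a promoter in the table held these letters.

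Some immediate early genes, which answer growth factors and stress within minutes, were also lower. Of 26 that entered at 24 h, 7 were lower and 0 higher, beside 6.03% of all genes lower, and of 27 at 48 h, 6 were lower and 0 higher, beside 5.8%. Their median log2 ratios were -0.51 and -0.44. With GC-centring the medians were -0.35 and -0.39, and 3 and 4 genes were lower, beside 4.3 and 5.34% of all genes. JUNB, a subunit of AP-1, was at 22.3 and 21.1 FPKM in the digoxin-series and 45.4 and 52 FPKM in the UA-series vehicles. ZFP36, which destabilises cytokine mRNA, had 8.33 and 8.70 FPKM in the digoxin-series vehicles, against 17.7 and 19.6 FPKM in the UA-series vehicles. KLF2, BTG1 and DUSP2 were lower in both pairs as well, BTG1, an antiproliferative factor, with 25.9 and 28.6 FPKM in the digoxin series, against 82.2 and 74.2 FPKM in the UA series. GC-centred, BTG1 and KLF2 were still past 2-fold in both pairs, and JUNB, ZFP36 and DUSP2 were not. ID1, an inhibitor of basic helix-loop-helix factors and a target of BMP signalling, was named after its values were seen, with 30.1 and 8.55 FPKM in the digoxin-series and 71.2 and 40.7 FPKM in the UA-series vehicles and log2 ratios of -1.24 at 24 h and -2.24 at 48 h.

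**Figure D3:**
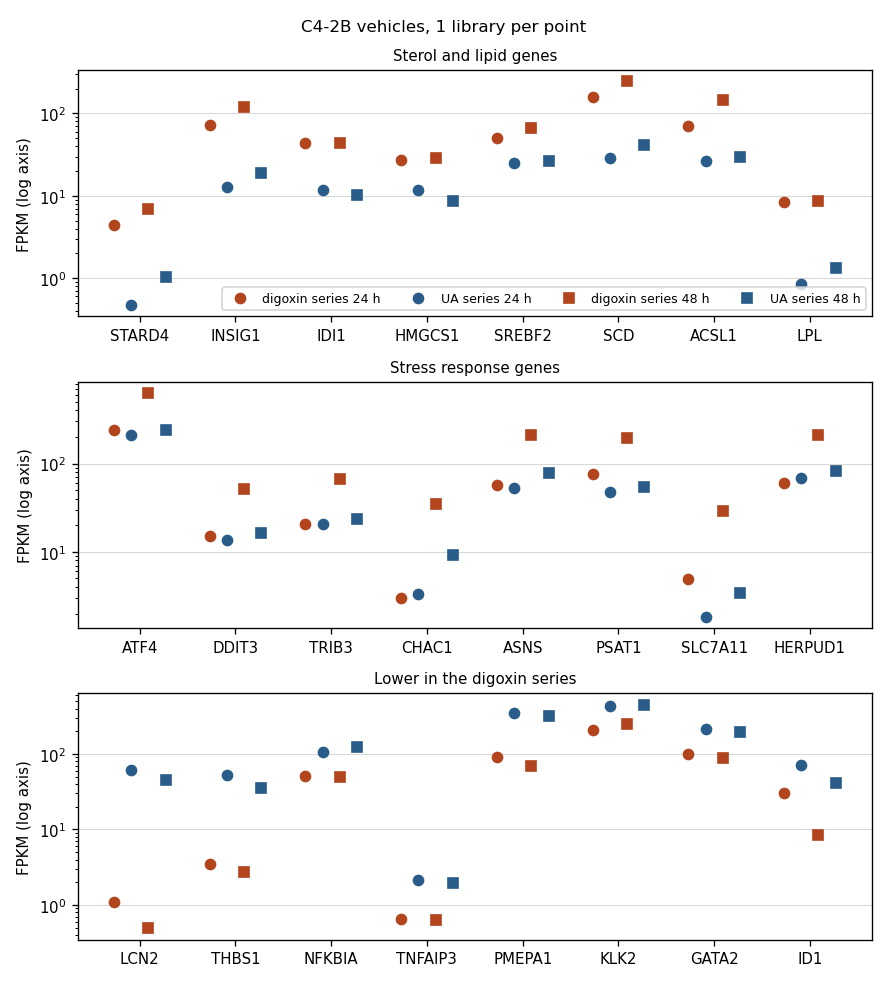
FPKM on a log axis of 24 named genes, each with 4 points, 1 library each: circles for 24 h and squares for 48 h, digoxin series in red to the left of UA series in blue at each time. Sterol and lipid genes lie higher in the digoxin series at both times, stress response genes stand apart mainly at 48 h, with ATF4 at 630 against 243 FPKM, and the genes of the bottom panel lie lower in the digoxin series at both times.

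Androgen-regulated genes differed unevenly between the series. Of the androgen-induced genes, 11 of 35 were lower and 0 higher at 24 h, beside 6.03% of all genes lower and 4.14% higher, and 7 of 34 were lower and 1 higher at 48 h, beside 5.8 and 11%. The median log2 ratio was -0.45 at 24 h and -0.26 at 48 h, and -0.57 and -0.48 with GC-centring, by which 10 genes were lower at each time, beside 4.3 and 5.34% of all genes. PMEPA1, an inhibitor of TGF-β and androgen signalling, was the farthest of the 6 lower in both pairs, at 92.3 and 68.8 FPKM in the digoxin-series vehicles, against 353 and 320.4 FPKM in the UA-series vehicles. SLC45A3, the prostate antigen prostein, had 60.3 and 69 FPKM in the digoxin series, against 131 and 142 FPKM in the UA series. SPDEF, a luminal transcription factor, was at 122 and 118 FPKM in the digoxin-series and 252 and 238 FPKM in the UA-series vehicles. MAF, SLC4A4 and TRGC1 were the other 3.

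The kallikreins did not move as a block. KLK2 had 205 and 247 FPKM in the digoxin-series vehicles, against 436 and 451 FPKM in the UA-series vehicles, with log2 ratios of -1.08 at 24 h and -0.87 at 48 h, whereas KLK3 had log2 ratios of 0.30 at 24 h and 0.70 at 48 h, both below 2-fold. KLK4 was at 129 and 85.6 FPKM in the digoxin series, against 210.0 and 184 FPKM in the UA series. NDRG1, which answers androgen and hypoxia, was at 48.6 and 99.9 FPKM in the digoxin-series and 135 and 148 FPKM in the UA-series vehicles, past 2-fold at 24 h only. FKBP5, a co-chaperone of steroid receptors, had log2 ratios of -0.16 at 24 h and -0.44 at 48 h, and -0.59 at 24 h and -1.06 at 48 h after GC-centring. BMPR1B was the 1 gene of the list that was higher, at 48 h, with 4.59 and 5.55 FPKM in the digoxin-series vehicles, against 2.74 and 2.18 FPKM in the UA-series vehicles.

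Among 14 androgen-repressed genes in both pairs, 4 were higher and 2 lower in both, beside 2.64% of all genes higher and 3.1% lower. The list had medians of 0.24 at 24 h and 0.63 at 48 h, and 0.05 and 0.21 with GC-centring. UGT2B15 and UGT2B28, which glucuronidate androgens, were at low levels in all libraries, UGT2B15 with 1.70 and 1.37 FPKM in the digoxin series, against 0.12 and 0.32 FPKM in the UA series. They belong to a family of similar sequences, so their FPKM is uncertain. DDC, the decarboxylase of dopamine and serotonin synthesis, was at 49.1 and 68.3 FPKM in the digoxin-series and 20.7 and 18.9 FPKM in the UA-series vehicles, and ACKR3, a scavenger receptor for the chemokine CXCL12, at 4.87 and 14.7 FPKM in the digoxin-series vehicles, against 1.68 and 2.33 FPKM in the UA-series vehicles. PEG10, given above, and CITED2 were lower, CITED2 with 37.5 and 45.4 FPKM in the digoxin series, against 76.1 and 96.5 FPKM in the UA series. Of the cofactors, GATA2, a pioneer factor of prostate cells, had 100.3 and 89 FPKM in the digoxin-series and 215 and 198 FPKM in the UA-series vehicles, and TLE3, a corepressor, had 38.2 and 39 FPKM in the digoxin-series vehicles, against 79.5 and 87.4 FPKM in the UA-series vehicles. These were the 2 genes of 19 in that list that were lower in both pairs, beside 3.1% of all genes. Their GC-centred log2 ratios were -0.61 at 24 h and -0.76 at 48 h for GATA2 and -0.78 at 24 h and -1.03 at 48 h for TLE3. With GC-centring 0 of the 19 genes were lower at 24 h and 1 at 48 h, beside 4.3 and 5.34% of all genes. FOXA1, the other pioneer factor, was at 148 and 167 FPKM in the digoxin series, against 237 and 247 FPKM in the UA series, short of 2-fold.

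Some adhesion and cytoskeleton genes were lower. Of 19 integrin, laminin and collagen genes that entered at 24 h, 8 were lower and 1 higher, beside 6.03% of all genes lower and 4.14% higher, and of 20 at 48 h, 5 were lower and 2 higher, beside 5.8 and 11%. FN1, fibronectin, was at 24.4 and 28.5 FPKM in the digoxin-series and 88.5 and 81.3 FPKM in the UA-series vehicles, and LAMC1, the laminin γ1 chain, at 49.4 and 43.1 FPKM in the digoxin-series vehicles, against 130.0 and 124 FPKM in the UA-series vehicles. ITGA2, the α2 integrin for collagen, was the 1 gene higher in both pairs, with 4.01 and 5.68 FPKM in the digoxin series, against 1.88 and 1.85 FPKM in the UA series. The list was mixed, with 5 of 19 log2 ratios positive at 24 h and 8 of 20 at 48 h. The median log2 ratio of the list was -0.96 at 24 h and -0.20 at 48 h, and -0.49 and -0.10 with GC-centring, with 5 and 3 genes lower, beside 4.3 and 5.34% of all genes. Of 24 actomyosin, SRF and YAP target genes 5 were lower and 0 higher at 24 h, beside 6.03% of all genes lower and 4.14% higher. At 48 h 7 were lower and 1 higher, beside 5.8 and 11%. The medians of these 24 genes were -0.62 and -0.42, and -0.32 and -0.50 with GC-centring. By GC-centred ratios 4 and 5 were lower, beside 4.3 and 5.34% of all genes. ZYX, zyxin of focal adhesions, had 28.7 and 32.9 FPKM in the digoxin-series and 87.1 and 86.9 FPKM in the UA-series vehicles, CNN2, calponin 2, had 16.8 and 16.1 FPKM in the digoxin-series vehicles, against 43.6 and 45 FPKM in the UA-series vehicles, and ACTN4, α-actinin 4, had 85 and 77.1 FPKM in the digoxin series, against 195 and 202 FPKM in the UA series. ACTB, β-actin, often taken as a constant gene, was at 1920 and 1418 FPKM in the digoxin-series and 2949 and 2873 FPKM in the UA-series vehicles, with log2 ratios of -0.62 at 24 h and -1.02 at 48 h.

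The integrated stress response set the 48 h pair apart from the 24 h pair. At 24 h 1 of 34 genes was higher and 0 lower, beside 4.14% of all genes higher. At 48 h 16 of 35 were higher and 0 lower, beside 11% of all genes higher. The median log2 ratio was -0.06 at 24 h and 0.93 at 48 h, and 0.08 and 0.87 with GC-centring, by which 14 genes were higher at 48 h, beside 3.64% of all genes. For 33 of 34 genes the 48 h ratio was above the 24 h ratio, with a median difference of 0.99, against 0.145 over all genes. Within the digoxin-series vehicles 22 of the 34 were 2-fold higher at 48 than at 24 h, with a median log2 ratio of 1.25, against 3 of 34 and a median of 0.19 within the UA-series vehicles. Over all genes, 454 of 12107 were 2-fold higher at 48 than at 24 h within the digoxin-series vehicles, with a median of 0.13. Within the UA-series vehicles 164 of 12110 were, with a median of -0.03.

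ATF4, the transcription factor of the response, was at 242 and 630.3 FPKM in the digoxin-series vehicles, against 210.4 and 243 FPKM in the UA-series vehicles, so 1 of the 4 libraries stood above the rest. DDIT3, the pro-apoptotic factor CHOP, had 15.1 and 51.3 FPKM in the digoxin series, against 13.7 and 16.3 FPKM in the UA series. TRIB3, a pseudokinase induced by both, stood at 20.9 and 66.3 FPKM in the digoxin-series and 20.9 and 23.5 FPKM in the UA-series vehicles. The same library, the digoxin-series vehicle at 48 h, was the high one in each. CHAC1, which degrades glutathione, had 3.02 and 34.6 FPKM in the digoxin-series vehicles, against 3.36 and 9.31 FPKM in the UA-series vehicles, the UA-series value at 48 h also being above both 24 h values. ASNS, asparagine synthetase, was at 57.5 and 212 FPKM in the digoxin series, against 52.6 and 78.4 FPKM in the UA series. PSAT1, of serine synthesis, had 77.1 and 194 FPKM in the digoxin-series and 47.8 and 54.2 FPKM in the UA-series vehicles. The synthesis of serine and its one-carbon units was represented further by PSPH, PHGDH and MTHFD2, with log2 ratios at 48 h of 1.77, 0.93 and 1.74. SLC7A11, the cystine importer, was the 1 gene higher at 24 h, with 4.90 and 28.9 FPKM in the digoxin-series vehicles, against 1.84 and 3.38 FPKM in the UA-series vehicles. NUPR1, a stress-induced nuclear protein, had 43 and 186 FPKM in the digoxin series, against 49.8 and 73.6 FPKM in the UA series, SESN2, which senses leucine, had 5.02 and 16 FPKM in the digoxin-series and 6.54 and 7.23 FPKM in the UA-series vehicles, and PCK2, the mitochondrial PEP carboxykinase, had 22.2 and 74.8 FPKM in the digoxin-series vehicles, against 26.6 and 33.4 FPKM in the UA-series vehicles. Transfer RNA synthetases moved less, AARS1 having log2 ratios of -0.05 at 24 h and 0.73 at 48 h and SARS1 of -0.02 at 24 h and 0.73 at 48 h. SLC7A5, the importer of large neutral amino acids, went against the list at 38.1 and 54.5 FPKM in the digoxin series, against 74 and 76 FPKM in the UA series.

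The promoters of ASNS (chr7:97872359-97872658, minus strand) and CHAC1 (chr15:40953221-40953520, plus strand), from RefSeq on GRCh38.p14, are shown for their CEBP-ATF response elements, to which ATF4 binds with a CEBP partner. Capitals mark the letters TGATGNAA on either strand, present in 3.62% of the promoters.
ASNS: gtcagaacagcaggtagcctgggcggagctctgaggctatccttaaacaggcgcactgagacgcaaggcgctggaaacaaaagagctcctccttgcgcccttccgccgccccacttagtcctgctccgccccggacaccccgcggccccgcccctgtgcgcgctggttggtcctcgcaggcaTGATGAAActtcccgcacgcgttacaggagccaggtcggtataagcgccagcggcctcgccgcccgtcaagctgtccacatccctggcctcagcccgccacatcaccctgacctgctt
CHAC1: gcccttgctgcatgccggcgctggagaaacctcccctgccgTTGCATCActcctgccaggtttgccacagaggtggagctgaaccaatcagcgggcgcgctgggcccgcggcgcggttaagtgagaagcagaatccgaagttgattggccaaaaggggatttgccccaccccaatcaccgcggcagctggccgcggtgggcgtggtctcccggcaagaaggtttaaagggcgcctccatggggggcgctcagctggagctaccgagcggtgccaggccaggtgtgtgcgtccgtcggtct
The match lies at -68 from the start of ASNS on the strand of the gene, and at -209 from that of CHAC1 on the opposite strand. These letters were found in the promoters of 11 of 31 list genes that had 1 in the table.

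ER folding genes showed the same difference in smaller size. Of 24, 0 were higher or lower at 24 h and 6 were higher at 48 h, beside 11% of all genes. The median log2 ratios were 0.08 and 0.61, and 0.08 and 0.39 with GC-centring, by which 2 were higher at 48 h, beside 3.64% of all genes. HERPUD1, which takes part in ER-associated degradation, was at 60.7 and 211 FPKM in the digoxin-series and 69 and 82 FPKM in the UA-series vehicles. XBP1, the transcription factor spliced by IRE1, was at 145 and 248 FPKM in the digoxin-series vehicles, against 138 and 119.6 FPKM in the UA-series vehicles, and DNAJB9, an ER co-chaperone, at 10.9 and 21.1 FPKM in the digoxin series, against 10.7 and 9.47 FPKM in the UA series. HSPA5, the chaperone BiP, had 306 and 442 FPKM in the digoxin-series and 246 and 248 FPKM in the UA-series vehicles, short of 2-fold in both pairs. The ratio at 48 h exceeded that at 24 h in all 24 genes, with a median difference of 0.40, against 0.145 over all genes. This direction was common, being found for 74 of 79 ribosomal protein genes and 58 of 62 nuclear-encoded respiratory chain genes.

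Growth and energy genes differed between the times too. The median log2 ratio of 45 DNA replication genes was 0.21 at 24 h and -0.15 at 48 h, and 0.14 and -0.25 with GC-centring, with 38 of the 45 ratios lower at 48 than at 24 h. CHAF1A, a subunit of the chromatin assembly factor, was at 45.8 and 30.1 FPKM in the digoxin-series vehicles, against 101 and 94.9 FPKM in the UA-series vehicles. It was the 1 gene of the 45 lower in both pairs, beside 3.1% of all genes. RRM2, the small subunit of ribonucleotide reductase, had 99 and 66.1 FPKM in the digoxin series, against 152 and 117 FPKM in the UA series. The 13 mitochondrially encoded genes had a median log2 ratio of -0.25 at 24 h and -0.85 at 48 h, 0 and 5 of them being lower past 2-fold, beside 6.03 and 5.8% of all genes. GC-centred, the medians were -0.53 and -1.25, with 2 and 8 lower, beside 4.3 and 5.34% of all genes. MT-ND1, a subunit of complex I, was at 11059 and 7756 FPKM in the digoxin-series and 21883 and 22152 FPKM in the UA-series vehicles. MT-CO3, of complex IV, was at 33670 and 26700 FPKM in the digoxin-series vehicles, against 30298 and 35808 FPKM in the UA-series vehicles, so 2 genes of the same genome differed in their gap. Nuclear-encoded respiratory chain genes had medians of 0.21 and 0.53 over 62 genes, and ribosomal protein genes 0.13 and 0.42 over 79 genes. With GC-centring these were 0.16 and 0.33 for the respiratory chain and 0.06 and 0.25 for the ribosome.

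**Figure D4:**
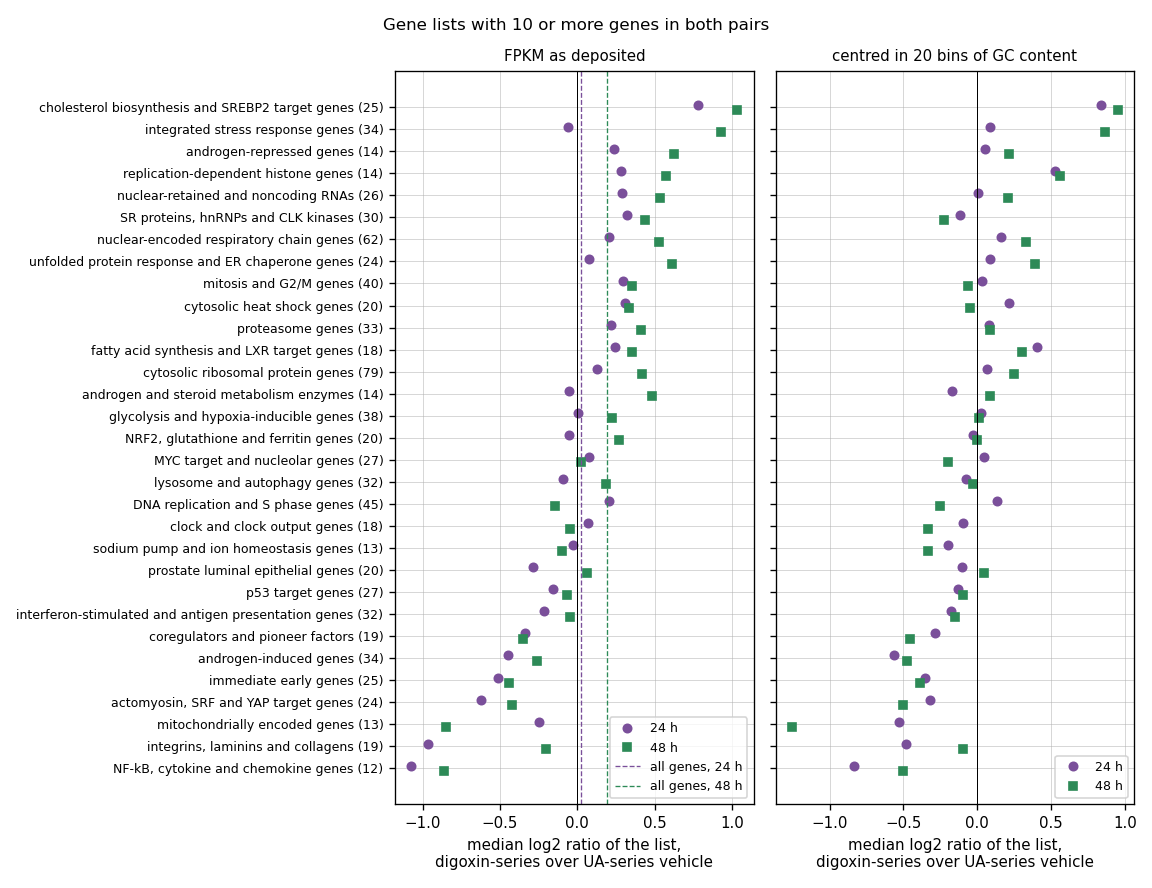
Median log2 ratio of digoxin-series over UA-series vehicle, on the horizontal axis, for each gene list with 10 or more genes in both pairs (that number in brackets), at 24 h (circles) and 48 h (squares), with FPKM as deposited on the left and GC-centred on the right. Cholesterol genes lie at 0.78 and 1.03 on the left and 0.84 and 0.95 on the right, while SR protein and hnRNP genes, at 0.33 and 0.44 on the left, lie at -0.12 and -0.23 on the right.

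For SR proteins and hnRNPs, splicing factors whose transcripts had a median GC content of 40.6%, GC-centring turned the sign. Their medians of 0.33 and 0.44 became -0.12 and -0.23. Mitosis genes likewise had medians of 0.30 and 0.35 over 40 genes, and 0.03 and -0.06 with GC-centring. Replication-dependent histone genes kept their side, with medians of 0.28 and 0.57 and GC-centred medians of 0.53 and 0.56. BST2, the interferon-induced tether of viruses, was at 20.8 and 23.9 FPKM in the digoxin series, against 8.02 and 7.29 FPKM in the UA series. It was the 1 gene of 32 in the interferon list higher in both pairs, a share near the 2.64% of all genes. The list had medians of -0.21 and -0.05, and -0.18 and -0.15 with GC-centring.

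Of long noncoding RNAs, 22 of 494 were higher and 15 lower in both pairs, beside 2.64 and 3.1% of all genes, so that the count of lower ones was near that of genes at large. MALAT1, an abundant nuclear RNA, was at 117 and 171 FPKM in the digoxin-series and 54.1 and 54.9 FPKM in the UA-series vehicles. LINC01270 had 6.88 and 10.4 FPKM in the digoxin-series vehicles, against 1.34 and 1.85 FPKM in the UA-series vehicles, and ZNF667-AS1, which was lower, 3.54 and 7.68 FPKM in the digoxin series, against 16.1 and 19.1 FPKM in the UA series. The levels of both digoxin-series vehicles lay on 1 side of both UA-series vehicles for each of these 3. The genes were picked for being past 2-fold in both pairs, which makes this likely, so it only describes them. WDR5B-DT and RAB4A-AS1 were the other named RNAs that were higher, and PCAT6 and IER3-AS1 the other ones that were lower. With GC-centring MALAT1 had log2 ratios of 0.77 at 24 h and 1.09 at 48 h, and RAB4A-AS1 of 1.02 and 0.91. These RNAs were then not past 2-fold in both pairs, while the others named in this paragraph were. TUBA1B-AS1 had the widest gap, with 427 and 219.6 FPKM in the digoxin-series and 1.57 and 3.01 FPKM in the UA-series vehicles. It is annotated opposite TUBA1B, which encodes α-tubulin and was at 2084 and 1299 FPKM in the digoxin-series vehicles, against 2194 and 2034 FPKM in the UA-series vehicles, and the library kit is not stated to keep strand, so reads of these overlapping genes cannot be told apart. In the UA series TUBA1B-AS1 was at 112 FPKM with 10 µM UA at 48 h, so its level also differed within that series.

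By chromosome, the medians as deposited followed GC content, the lowest being chromosome 19 with -0.42 at 24 h and -0.33 at 48 h and the highest chromosome 13 with 0.44 and 0.65. With GC-centring the autosomes and X lay between -0.16, of chromosome 2 at 24 h, and 0.15, of chromosome 13 at 48 h. Neighbouring genes sometimes lay lower together. On chromosome 19 PGLYRP2, CYP4F22, CYP4F8 and CYP4F12, consecutive among the genes lower at both times (chr19:15468645-15697174, hg38), included CYP4F22 at 0.11 and 0.08 FPKM in the digoxin series, against 1.28 and 1.11 FPKM in the UA series and CYP4F12 at 0.19 and 0.60 FPKM in the digoxin-series and 2.25 and 2.02 FPKM in the UA-series vehicles. The CYP4F genes are similar in sequence, which makes their separate FPKM uncertain. On chromosome 2, TUBA3D, an α-tubulin gene, had 19.8 and 20.2 FPKM in the digoxin-series vehicles, against 82.2 and 78.7 FPKM in the UA-series vehicles, and CCDC74A, which begins within 44741 bases of its end, had 7.15 and 7.39 FPKM in the digoxin series, against 26.9 and 26.1 FPKM in the UA series. On chromosome 1, S100A8 and S100A7, calcium-binding proteins of squamous and myeloid cells, were listed at 0 in both digoxin-series vehicles, with S100A9 at 0.63 and 1.46 FPKM in the digoxin-series and 4.15 and 4.20 FPKM in the UA-series vehicles. The S100A genes were among the 83 that were very abundant in HCC70.

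**Figure D5:**
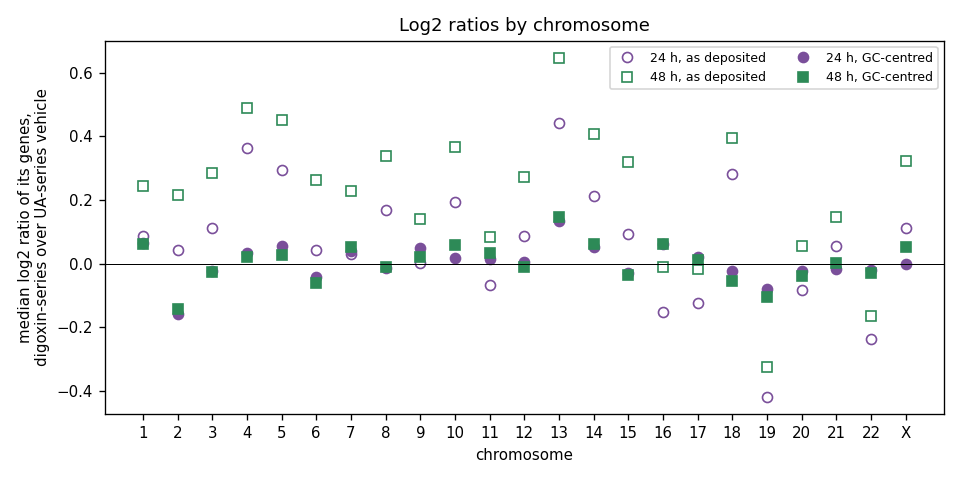
Median log2 ratio of digoxin-series over UA-series vehicle, on the vertical axis, of the genes of each chromosome at 24 h (circles) and 48 h (squares), open for FPKM as deposited and filled after GC-centring. Open symbols span -0.42 to 0.65 and filled symbols -0.16 to 0.15.

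The treated C4-2B libraries gave a view of the same series with other cultures. Digoxin at 100 nM over UA at 10 µM, at the same time, also holds the difference between the treatments. Of the 315 genes higher in both vehicle pairs, 150 were past 2-fold in the same direction between the treated libraries at both times, or 47.6%, against 4.02% of all 11930 genes. Of the 370 lower genes 187 were, or 50.5%, against 3.53%. Across genes, the log2 ratio of the vehicles and that of the treated libraries had a Pearson r of 0.69 at 24 h and 0.61 at 48 h, with no library in common but the same series, depth and base composition behind both. Cholesterol genes had medians of 0.77 and 0.91 between the treated libraries, and NF-kB genes -0.79 and -0.73. The integrated stress response did not separate the treated libraries, with medians of 0.09 and 0.02, and the androgen-induced genes had medians of 0.05 and 0.24.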

How the data were processed

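RNA was taken by the submitters from C4-2B and HCC70 cultures with TRIzol, and libraries were made from 1 µg of total RNA with an Illumina TruSeq kit whose handling of strand is not given in the sources used here. The authors deposited 1 file per library with a value per Ensembl gene. The paper's methods and the submitters' processing notes name BWA, Bowtie, Cufflinks and hg38, and the values deposited by the authors are FPKM, taken as such in both series although the UA-series files list 8957 IDs that the digoxin-series files lack, and the digoxin-series files list 125 that the UA-series files lack. FPKM keeps no exact read counts, so depth is only estimated.

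Groups followed the labels, with 1 library per condition and therefore no test within a pair, and limma over both times was an alternative only. Entries of a symbol were summed, 0.1 FPKM was added before log2 ratios, genes above 1 FPKM in either library of a pair entered, and 2-fold was the limit of a call. The members, the 35 gene lists and the comparisons were chosen with earlier results of these data known. Genes named are the 15 protein-coding and 5 long noncoding genes per direction with the most extreme mean of both log2 ratios, among those above 5 FPKM in either library of each pair and past 2-fold in both, list members past 2-fold in both pairs or best known, genes past 2-fold in opposite directions, and genes the study names, of which KLK2, KLK3 and FKBP5 are given. Some genes that the rule takes are not reported here. Near-identical copies, readthroughs and small RNAs were left undescribed except where said. GC content came from the longest transcript of GENCODE release 44, and ratios were centred on the median of 20 bins. Promoters of 300 bases came from RefSeq. Alternatives changed the pseudocount, filter, scaling, fold limit and libraries. Scripts were tested on simulated data. Python 3.11.15, numpy 2.4.6, pandas 2.3.3, scipy 1.17.1, matplotlib 3.10.9, R 4.3.3 and limma 3.58.1 were used.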

Additional observations from a re-analysis of the deposited data

Results flagged for a closer look

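Some differences between the series were not alike at 24 and 48 h, and with 1 library per condition the change between the times was not tested. The integrated stress response genes had a median log2 ratio of -0.06 at 24 h and 0.93 at 48 h, so the 48 h median was 0.99 above the 24 h median. GC-centred, these medians were 0.08 and 0.87, so the 24 h value was near 0 on either side. DNA replication genes had medians of 0.21 and -0.15, and the 48 h median less the 24 h median was -0.35.

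PVT1, a long noncoding RNA next to MYC, was chosen after its values were seen. It was at 19.5 and 60 FPKM in the digoxin-series vehicles at 24 and 48 h, against 44.5 and 20.4 FPKM in the UA-series vehicles, and its log2 ratio at 48 h less that at 24 h was 2.74. Among genes past 2-fold in opposite directions, XAGE1A and XAGE1B, antigens of the X chromosome with near-identical sequences, had 48 h less 24 h differences of -5.46 and 6.50. Their reads can be assigned to either copy, and their sum was 64 and 76.4 FPKM in the digoxin-series vehicles, against 38.6 and 38.7 FPKM in the UA-series vehicles, log2 ratios of 0.73 at 24 h and 0.98 at 48 h.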

How the results depend on the processing

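The labels give no replicate numbers, so no replicate block was fitted, and libraries were matched by time only. Counts are given as higher and lower at 24 h, higher and lower at 48 h, and higher and lower in both pairs, where they moved by more than 1.5 times. Adding 1 FPKM gave 252, 378, 846, 430, 176 and 209 genes. A limit of 1.5-fold gave 1992, 1943, 3466, 1803, 1562 and 1147, and a limit of 3-fold gave 99, 238, 275, 210, 52 and 89. Without the FPKM filter 993 genes were higher and 1565 lower at 24 h, 1410 lower at 48 h and 615 lower in both. With a filter of 5 FPKM 275 were higher and 351 lower at 24 h, 419 lower at 48 h, and 201 higher and 208 lower in both, and with more than 1 FPKM asked of both libraries 438 were lower at 24 h and 244 in both. At 48 h median-centring gave 798 higher and 1112 lower, and trimmed and quantile scaling gave 868 and 867 higher. GC-centring gave 254 higher at 24 h, 449 at 48 h and 118 in both. The treated libraries gave 494 higher in both. limma with series and time as terms, which matches the libraries by time, takes both times as repeats and has 1 residual degree of freedom, called 2288 higher and 1551 lower at a false discovery rate of 0.05.

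Of all calls at 24 h, 40.7% were higher, against 37.1% after median-centring, 36.6% trimmed, 44.8% on nuclear genes, 43.9% quantile and 32.9% GC-centred. At 48 h the share was 65.4%, against 41.8, 45.6, 53.2, 45.7 and 40.5% in the same order. The sign changed for androgen-repressed genes at 24 h when the mean of -0.036 replaced the median. Quantile scaling put the mitochondrially encoded genes at 0.0 at both times, since it gives the highest ranks equal values. Between the treated libraries, over the genes that enter by their own levels, the median was 0.079 and 0.279 for androgen-induced genes, 0.10 at 24 h for actomyosin genes, and the mean log2 ratio of MYL9 was 0.006. The cause was not tested. Of 451 alternative values of named genes 346 stayed close and of 288 list medians 230. Depth limits genes of low FPKM most, and with 1 library no spread between cultures is known.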

Other observations

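Some genes outside the lists stood apart as well. IL32, a proinflammatory cytokine, and ID3, an inhibitor of helix-loop-helix factors, were chosen after their values were seen. IL32 was at 3.01 and 1.76 FPKM in the digoxin-series vehicles at 24 and 48 h, against 9.54 and 11.6 FPKM in the UA-series vehicles. ID3 was at 29.2 and 18.3 FPKM in the digoxin-series vehicles, against 83.8 and 70.4 FPKM in the UA-series vehicles. Both stayed past 2-fold at both times with GC-centring.

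Along the genome, 561 windows of 40 neighbouring genes were described after GC-centring. The window with the lowest mean of both pairs lay on chromosome 2 (chr2:121726945-148021604, hg38), with medians of -0.22 at 24 h and -0.40 at 48 h, and -0.23 and -0.21 between the treated libraries. Windows near the end of chromosome 16 were among the highest, with medians of 0.29 and 0.48 over chr16:527712-1793700.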
